A study of Rattus norvegicus with 12 samples.

Results

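The genes described here are 9 genes that make peptides for major histocompatibility complex (MHC) class I molecules and load them, in the RNA of rat red blood cells (RBCs) kept in the cold. They were chosen by name from the known pathway, when earlier results of these data were known. All 9 were found among the 29539 genes of the table. They are *B2m*, *Tap1*, *Tap2*, *Tapbp*, *Psmb8*, *Psmb9*, *Psmb10*, *Nlrc5* and *Erap1*.

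MHC class I molecules carry peptides made inside a cell to its surface, where CD8+ T cells read them. The proteasome cuts proteins into these peptides, and in cells exposed to interferon gamma the 3 catalytic subunits of its core are replaced by inducible ones, encoded by *Psmb8*, *Psmb9* and *Psmb10*, which gives the immunoproteasome. The transporter formed by *Tap1* and *Tap2* moves the peptides into the endoplasmic reticulum, the aminopeptidase *Erap1* trims them there, and tapasin (*Tapbp*) holds the empty class I molecule at the transporter. *B2m* encodes beta 2-microglobulin, the light chain of every class I molecule, and *Nlrc5* encodes the transactivator that drives class I genes in mouse and human lymphocytes. Leukocytes express the whole pathway, whereas a mature RBC has no nucleus and makes no new transcripts.

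Total RNA was sequenced from RBCs of wild-type male Wistar rats aged 11 weeks. Whole blood was mixed with CPDA, an anticoagulant and preservative solution, and 4 libraries came from each condition: Cont (purified without storage, day 0), 10 d and 20 d (whole blood stored at 4 °C for 10 or 20 days before purification). The RBCs were purified by washing away plasma and buffy coat after storage, so the day of purification and the storage time cannot be told apart, and all blood, Cont included, had been mixed with CPDA. Per the study's methods the blood of each rat was divided among the storage times as paired samples, so the conditions share rats. The methods do not say whether the sequenced libraries of every condition came from the same rats. The labels give replicate numbers but not the rat behind each number, so libraries were tested as unpaired and *p*-values measure the spread between these libraries. Total counts per library were 65735930 to 85996710. The 9 genes without *B2m* held 649 to 1070 counts in each Cont library, 446 to 563 in each 10 d library and 271 to 352 in each 20 d library, so counting error is large for most of them. Every member passed the filter on low counts. *Psmb8*, *Psmb9* and *Psmb10* passed it through the conditions in which they were higher, since none of their 20 d libraries reached the filter's 0.130 CPM (counts scaled to library size). The marker genes of RBCs were abundant, at a summed 1823 to 2419 CPM in Cont, and leukocyte markers were also present (the 10 pan-leukocyte markers summed to 57.2 to 83.3 CPM in Cont). In such bulk RNA, fewer cells of a type and less RNA per cell cannot be told apart.

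Most of the genes fell during storage, while the light chain gene rose with TMM scaling but not with scaling by library size alone. After 20 days against Cont, 6 of the 9 genes were lower (*Tap1*, *Tap2*, *Psmb8*, *Psmb9*, *Psmb10* and *Nlrc5*), 1 was higher (*B2m*), and *Tapbp* and *Erap1* did not pass an adjusted *p* of 0.05 in edgeR's quasi-likelihood test. Over all 8382 genes tested, 20.9% were lower and 12.9% were higher in this comparison (33.8% in either direction). The median log2 fold change was -2.22 over the 9 genes and -0.01 over all genes. When libraries were scaled by their size alone, 6 members were lower and 0 were higher, while over all genes 2905 were lower and 100 were higher, against 1753 lower and 1079 higher with TMM scaling. In 20 d against 10 d, 4 members were lower (*Psmb9*, *Tap2*, *Psmb8* and *Tap1*) and 0 were higher, where 12.6% of all genes were lower and 3.61% were higher. The median was -1.61 over the members and -0.08 over all genes. In 10 d against Cont, 1 member was lower (*Psmb9*) and 1 was higher (*B2m*), where 5.69% of all genes were lower and 8.02% were higher, and the medians were -0.50 and 0.00. In the test among the 3 conditions at an adjusted *p* of 0.0001, which 6.93% of genes passed, *Psmb9* (adjusted *p* = 9.49e-07) and *Tap2* (8.02e-05) passed, but 1 member passed without Cont replicate 2, 3 or 4, 10 d replicate 2 or 4, or 20 d replicate 1, 2 or 4. The comparisons share libraries (20 d or Cont), so their results are not independent of each other.

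**Figure D1:**
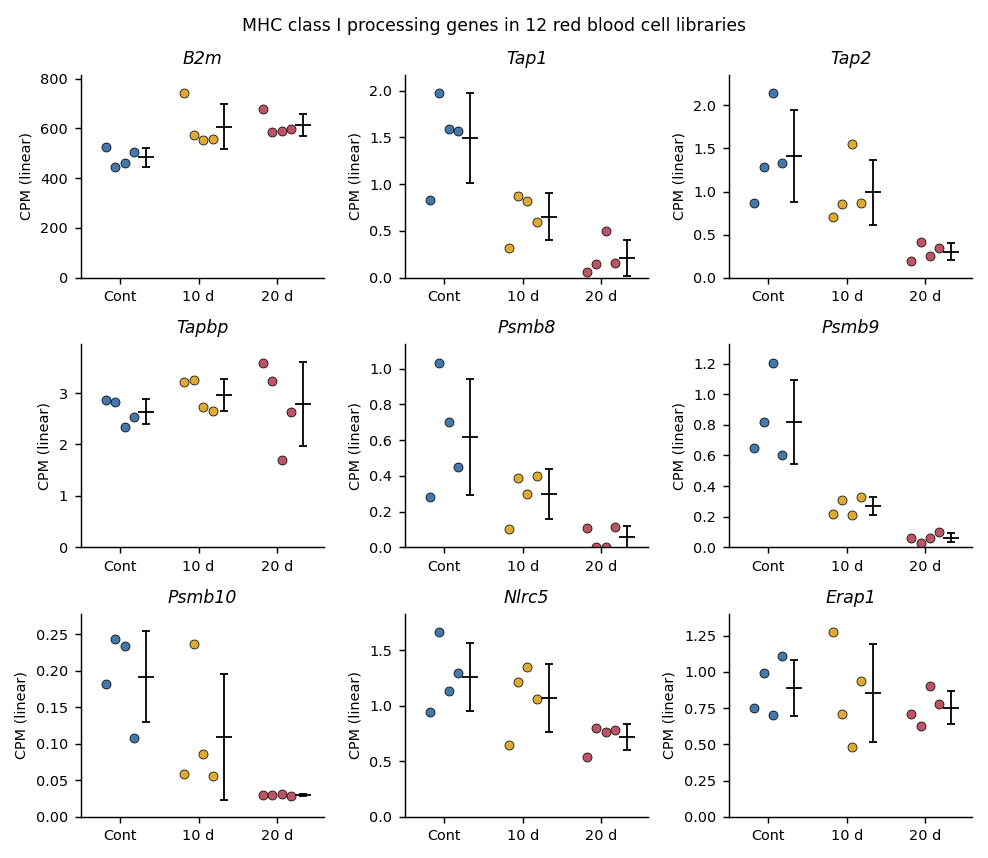
CPM of each member (linear axis from 0, TMM-scaled) in the 4 libraries of Cont, 10 d and 20 d, with the mean and SD as a bar beside the points. *B2m* lies above all Cont libraries in 10 d and 20 d, whereas *Psmb9* falls at each step without overlap of the conditions. With scaling by library size alone *B2m* is not higher (-0.04 on the log2 scale in 20 d against Cont).

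The 3 inducible proteasome subunits all fell in 20 d against Cont. *Psmb9*, which replaces the caspase-like subunit *Psmb6*, had 57, 81, 103 and 56 counts in Cont, 15, 22, 15 and 24 in 10 d, and 4, 2, 4 and 7 in 20 d. No library of any condition overlapped those of another in CPM. *Psmb9* fell in every comparison, with a log2 fold change of -1.60 ± 0.32 (± SE throughout, adjusted *p* = 0.00136) in 10 d against Cont, -3.66 ± 0.38 (4.15e-07) in 20 d against Cont and -2.06 ± 0.41 (0.00175) in 20 d against 10 d. Its level averaged 0.0628 ± 0.0283 CPM in 20 d and 0.819 ± 0.275 CPM in Cont (SD, n = 4 each).

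*Psmb8*, which replaces the chymotrypsin-like subunit *Psmb5*, had 25, 102, 60 and 42 counts in Cont, 7, 28, 21 and 29 in 10 d, and 7, 0, 0 and 8 in 20 d. Both 20 d libraries at 0 were below every other library, and a count of 0 allows up to 3 counts, or 0.0450 and 0.0465 CPM there (counting error only). The 20 d libraries lay below Cont, and 10 d replicate 1 lay among those of 20 d. *Psmb8* fell in 20 d, with log2 fold changes of -3.44 ± 0.70 against Cont (adjusted *p* = 0.00134) and -2.39 ± 0.74 against 10 d (0.0383), while its -1.05 ± 0.56 in 10 d against Cont did not pass (0.28). The fall against 10 d was lost without Cont replicate 3 or 4, 10 d replicate 2, 3 or 4, or 20 d replicate 2 or 3 (adjusted *p* of 0.0512 to 0.0963). It was also lost with library size alone (0.0577) and with the replicate number as a block (0.0588).

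*Psmb10*, which replaces the trypsin-like subunit *Psmb7*, was the rarest member, with 16, 24, 20 and 10 counts in Cont, 4, 17, 6 and 4 in 10 d, and 2 in each of the 4 libraries of 20 d. The 20 d libraries lay below all others, and 10 d replicate 2 lay among the Cont libraries. Its log2 fold change in 20 d against Cont was -2.62 ± 0.64 (adjusted *p* = 0.00302). Its values of -1.82 ± 0.68 in 20 d against 10 d (0.0702) and -0.80 ± 0.54 in 10 d against Cont (0.398) did not pass, though the likelihood ratio test passed in 20 d against 10 d (0.0379) and limma on TPM passed in 10 d against Cont (0.0375).

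None of the constitutive subunits that these 3 replace was called lower. *Psmb6* averaged 3.46 ± 0.51 CPM in 20 d and 2.56 ± 0.49 CPM in Cont, and its log2 fold change of 0.43 ± 0.14 (adjusted *p* = 0.0179) passed, whereas with scaling by library size alone it was 0.05 and with TPM it was -0.05, and neither passed. *Psmb7* averaged 2.99 ± 0.22 CPM in 20 d and 1.91 ± 0.54 CPM in Cont (0.65 ± 0.16, adjusted *p* = 0.00249), and its 0.28 under library size alone did not pass. *Psmb5* averaged 0.191 ± 0.102 CPM in 20 d and 0.190 ± 0.049 CPM in Cont, with a log2 fold change of 0.01 ± 0.48 that turned to -0.37 with library size alone and did not pass under any of these scalings. In 10 d against Cont, *Psmb6* (0.45 ± 0.14, adjusted *p* = 0.0315) and *Psmb7* (0.56 ± 0.16, 0.0186) were also higher, and neither passed with library size alone (0.10 and 0.22). *Psmb6* lost this call in 5 cases (adjusted *p* of 0.0594 to 0.131, without Cont replicate 3 or 4 or 10 d replicate 2, 3 or 4) and its call in 20 d without 20 d replicate 1 (0.0714), and *Psmb7* lost its call in 10 d without Cont replicate 2 or 4 or 10 d replicate 1 (0.0556 to 0.0928).

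Setting each inducible subunit against its constitutive partner within a library removes the scaling of libraries. *Psmb9* made up 18.9%, 20.7%, 35.4% and 22.2% of the counts of *Psmb9* and *Psmb6* together in Cont, 6.58%, 7.91%, 5.73% and 8.11% in 10 d, and 1.43%, 0.94%, 1.74% and 3.18% in 20 d. The 3 conditions did not overlap. *Psmb10* averaged 9.60% ± 4.35% of the counts of *Psmb10* and *Psmb7* in Cont, 3.71% ± 2.87% in 10 d and 0.990% ± 0.056% in 20 d (SD, n = 4 each), and the 20 d libraries lay below all others. This SD in 20 d comes from 2 *Psmb10* counts in each library and does not hold their counting error. The 95% exact binomial interval was 0.11% to 3.2% in 20 d replicate 1, and 0.51% to 4.7% in 10 d replicate 1. *Psmb8* averaged 74.1% ± 9.6% of the counts of *Psmb8* and *Psmb5* in Cont, 64.5% ± 5.9% in 10 d and 25.0% ± 30.9% in 20 d. Here the 20 d libraries did not separate, since 20 d replicate 1 was at 63.6% (95% exact binomial interval 30.8% to 89.1%) and the 0 of 13 counts in 20 d replicate 2 allows up to 24.7%. The mean log2 ratio of *Psmb9* to *Psmb6* was -5.71 ± 0.66 in 20 d and -1.67 ± 0.55 in Cont, a difference of -4.03, and the difference was -2.01 in 20 d against 10 d and -2.02 in 10 d against Cont. Each had *p* = 0.0286 in a two-sided exact permutation test, the smallest that 4 against 4 libraries can give, and 0.0514 after Benjamini-Hochberg adjustment over the 9 ratio tests. *Psmb10* to *Psmb7* differed by -3.02 in 20 d against Cont and by -1.49 in 20 d against 10 d, with the same exact permutation *p* of 0.0286 (adjusted 0.0514), and by -1.53 in 10 d against Cont (exact *p* = 0.0857). *Psmb8* to *Psmb5* differed by -4.09 in 20 d against Cont (exact *p* = 0.0571). Thus 0 of the 9 ratio tests passed an adjusted *p* of 0.05, and 5 of 9 had an unadjusted *p* under 0.05. With 3 against 4 libraries the exact permutation test cannot give a *p* under 0.0286 either. The smallest adjusted value is therefore set by how many of the 9 tests reach that floor. Neither the 0 of 9 nor the passes that follow can be read as the strength of a single ratio. Without Cont replicate 1, 4 of the ratio tests that involve Cont passed the exact permutation test at an adjusted *p* of 0.0429. They were *Psmb9* to *Psmb6* and *Psmb8* to *Psmb5* in 10 d against Cont, and *Psmb9* to *Psmb6* and *Psmb10* to *Psmb7* in 20 d against Cont. Without 20 d replicate 1, 5 of those that involve 20 d passed it at the same value. They were *Psmb9* to *Psmb6* and *Psmb8* to *Psmb5* in 20 d against Cont and against 10 d, and *Psmb10* to *Psmb7* in 20 d against Cont. Tests between conditions that kept all their libraries are left out of these counts, though the adjustment ran over all 9 tests.

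**Figure D2:**
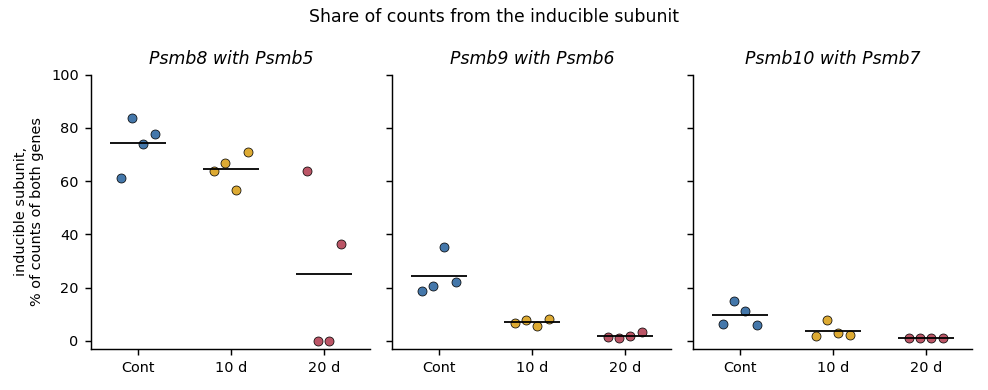
Percent of counts from the inducible subunit among the counts of both genes of a pair, for the libraries of Cont, 10 d and 20 d (points) with their mean (line). *Psmb9* with *Psmb6* has means of 24.3%, 7.08% and 1.82%, without overlap, whereas the 20 d libraries of *Psmb8* with *Psmb5* spread over 0% to 63.6%.

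Both chains of the peptide transporter fell. *Tap2* had 77, 127, 183 and 124 counts in Cont, 48, 61, 109 and 63 in 10 d, and 13, 28, 16 and 24 in 20 d. The 20 d libraries lay below all others, whereas 10 d overlapped Cont. *Tap2* fell in 20 d, with log2 fold changes of -2.22 ± 0.32 against Cont (adjusted *p* = 2.31e-05) and -1.72 ± 0.32 against 10 d (0.00127), and its -0.50 ± 0.28 in 10 d against Cont did not pass (0.296). *Tap1* had 73, 195, 136 and 146 counts in Cont, 22, 63, 58 and 43 in 10 d, and 4, 10, 32 and 11 in 20 d. 20 d was below Cont in every library, but 20 d replicate 3 lay among the 10 d libraries. *Tap1* fell in 20 d as well, with -2.79 ± 0.48 against Cont (adjusted *p* = 0.000397) and -1.61 ± 0.50 against 10 d (0.0413). The fall against 10 d was lost without Cont replicate 3 or 4, 10 d replicate 2, 3 or 4, or 20 d replicate 1, 2 or 4 (adjusted *p* of 0.0501 to 0.112) and with library size alone. In 10 d against Cont its -1.19 ± 0.42 did not pass (0.0815) but passed without Cont replicate 1, 20 d replicate 1 or 20 d replicate 3. It also passed with library size alone, no filter, DESeq2, limma on TPM or the replicate number as a block.

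*B2m* was the 1 member higher than in Cont, with TMM scaling but not with library size alone. It had 46270, 43778, 39495 and 46976 counts in Cont, 50662, 41230, 38947 and 40461 in 10 d, and 45096, 39076, 38019 and 42235 in 20 d. These raw counts overlapped between conditions, and only the scaled values separated. It averaged 484 ± 37 CPM in Cont, 607 ± 91 CPM in 10 d and 613 ± 44 CPM in 20 d, and its log2 fold change was 0.34 ± 0.09 (adjusted *p* = 0.00487) in 20 d against Cont and 0.33 ± 0.09 (0.0157) in 10 d against Cont, whereas with scaling by library size alone these were -0.04 and -0.03 and with TPM they were -0.16 and -0.07, none of which passed. Scaling by library size alone shifted the median of all genes by -0.39 in 20 d against Cont and by -0.36 in 10 d against Cont, so that *B2m* stayed above the median gene there. With 1 CPM asked in at least 4 libraries the log2 fold change was 0.17 in 20 d against Cont (adjusted *p* = 0.193) and 0.19 in 10 d against Cont (0.133), so neither passed. The call in 10 d was also lost with DESeq2 size factors (0.0507) and without Cont replicate 2 or 3 or 10 d replicate 1 (adjusted *p* of 0.0687 to 0.0946). Between 20 d and 10 d the log2 fold change was 0.01 ± 0.09 (0.941).

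*Nlrc5* had 83, 164, 97 and 120 counts in Cont, 44, 87, 95 and 77 in 10 d, and 36, 53, 49 and 55 in 20 d. The 20 d libraries lay below Cont in CPM but overlapped 10 d. For *Nlrc5* the log2 fold change in 20 d against Cont was -0.81 ± 0.23 (adjusted *p* = 0.0106), and this call was lost without Cont replicate 2 (-0.61, 0.0621). The values of -0.57 ± 0.24 in 20 d against 10 d (0.112) and -0.24 ± 0.23 in 10 d against Cont (0.592) did not pass. In 20 d against 10 d it passed without 10 d replicate 1 (0.029) or with the replicate number as a block (0.0472).

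For tapasin and the trimming peptidase no change was detected at this depth. *Tapbp* had 252, 279, 200 and 235 counts in Cont, 219, 234, 192 and 192 in 10 d, and 239, 215, 110 and 185 in 20 d. The conditions overlapped, and the log2 fold change of 0.08 ± 0.17 in 20 d against Cont (adjusted *p* = 0.765) turned to -0.31 with library size alone (0.135) and to -0.44 with limma on TPM, which passed (0.0404). *Erap1* had 66, 98, 60 and 103 counts in Cont, 87, 51, 34 and 68 in 10 d, and 47, 42, 58 and 55 in 20 d, with overlapping libraries and a log2 fold change of -0.24 ± 0.26 in 20 d against Cont (0.52). The *Tapbp* model lies wholly within that of *Rgl2*, a neighbouring gene on the same strand with 166 counts in Cont, 127 in 10 d and 68 in 20 d, and reads in the shared 9245 bases cannot be told apart.

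**Figure D3:**
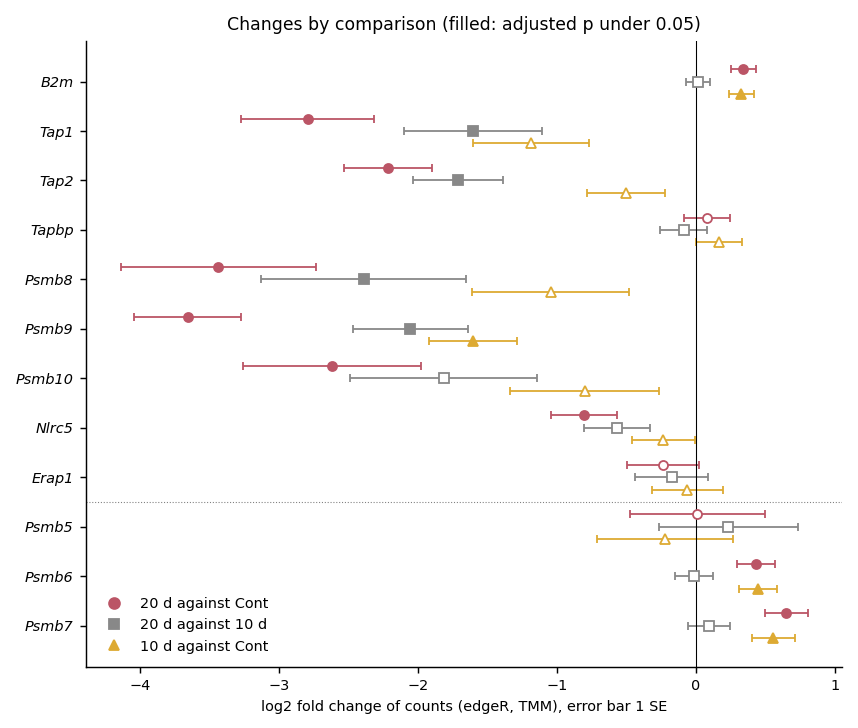
Log2 fold changes (point) with 1 SE (bar) for the 9 members and, below the dotted line, the 3 constitutive subunits, in 20 d against Cont, 20 d against 10 d and 10 d against Cont. Filled points passed an adjusted *p* of 0.05. *Psmb9* reaches -3.66, while *B2m* (0.34), *Psmb6* (0.43) and *Psmb7* (0.65) lie right of 0 in 20 d against Cont (with library size alone -0.04, 0.05 and 0.28).

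The members also changed order in level per length. In TPM, a measure per transcript length, *B2m* was highest in every condition and held 98.4% to 99.6% of the summed TPM of the 9 genes. In Cont it averaged 621 ± 49 TPM, *Tapbp* came next with 2.24 ± 0.18, and *Tap2* (0.759 to 2.49), *Tap1* (1.30 ± 0.50), *Psmb8* (1.13 ± 0.65) and *Psmb9* (1.08 ± 0.48) followed with overlapping libraries. *Nlrc5* (0.452 ± 0.134) and *Erap1* (0.326 ± 0.080) had lower means and overlapped each other, and *Psmb10* was lowest at 0.160 ± 0.062. *Nlrc5*, at up to 0.609 TPM, also overlapped *Tap1* (from 0.596) and *Psmb8* (from 0.424). In 20 d the order after *B2m* and *Tapbp* (1.67 ± 0.46 TPM) was *Tap2* (0.219 ± 0.073), *Erap1* (0.196 ± 0.034), *Nlrc5* (0.181 ± 0.033), *Tap1* (0.132 ± 0.122), *Psmb8* (0.0668 ± 0.0773), *Psmb9* (0.0567 ± 0.0250) and *Psmb10* (0.0174 ± 0.0011). *Tap2* to *Psmb9* overlapped from neighbour to neighbour in 20 d, while *Psmb10* lay below *Psmb9* without overlap in TPM. In counts the 20 d libraries had 2 of *Psmb10* each and 2 to 7 of *Psmb9*, so counting error is large in this order.

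Of the genes that fell, 4 are neighbours. In mRatBN7.2, *Tap2* (chromosome 20, 4636357 to 4650407, minus strand), *Psmb8* (4652159 to 4655283, minus), *Tap1* (4656263 to 4666901, minus) and *Psmb9* (4666046 to 4672512, plus) lie within 36156 bases of the MHC. The ends of *Tap1* and *Psmb9* overlap by 856 bases on opposite strands, and since the kit does not mark strand, reads there cannot be told apart. *Tapbp* is on the same chromosome (4956937 to 4966181, minus), 284425 bases beyond *Psmb9*. The others are elsewhere, with *B2m* on chromosome 3 (109095729 to 109101766, plus), *Erap1* on chromosome 2 (3931904 to 3972447, plus), and *Nlrc5* (10477628 to 10562121, minus) and *Psmb10* (33827229 to 33833626, minus) on chromosome 19. The genes on either side of the 4 are mostly MHC class II genes, of which 3 (*RT1-Db1*, *RT1-Ba* and *RT1-Bb*) were higher in 10 d against Cont. A test of their difference from the 4 genes was not made. *RT1-Bb*, a class II beta chain gene, had 212 counts over the Cont libraries, 456 in 10 d and 16 in 20 d, and was higher by 1.47 on the log2 scale in 10 d against Cont (adjusted *p* = 5.12e-05), whereas *Psmb9* fell by 1.60 there. It fell by 3.25 in 20 d against Cont (6.9e-08). None of the 20 d libraries of *RT1-Bb* was over the filter, so it could be tested through the other conditions alone. *Brd2*, a bromodomain gene among these neighbours, fell by 1.32 in 20 d against Cont (4.12e-05).

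**Figure D4:**
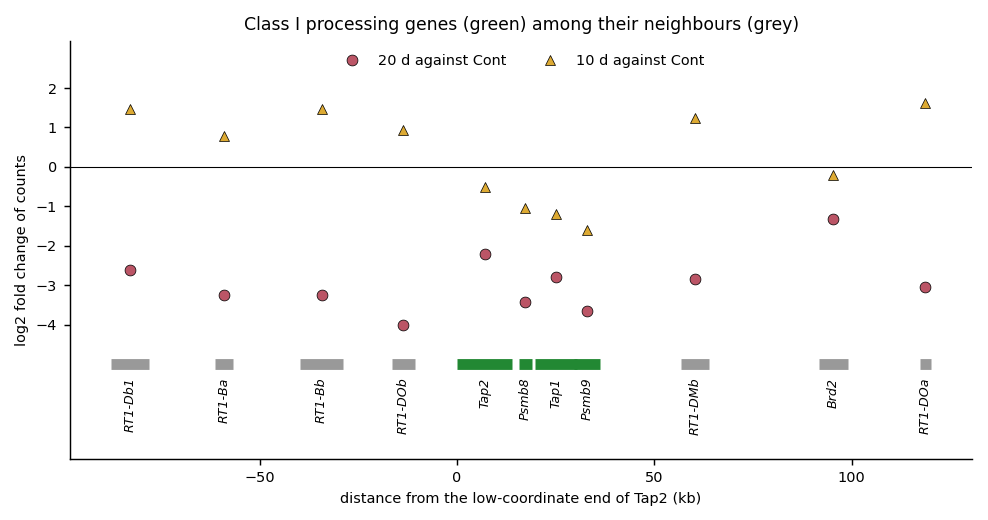
Log2 fold change by position for *Tap2*, *Psmb8*, *Tap1* and *Psmb9* (green bars, gene extents) and the tested neighbours (grey bars), in 20 d against Cont (circles) and 10 d against Cont (triangles), with distance in kb from *Tap2*. In 20 d all 11 genes lie below 0, while in 10 d the 4 green genes lie below 0 (-0.50 to -1.60) and the class II genes above it.

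To show what stands before these genes, the 250 bases upstream of the start were read from RefSeq (build GRCr8, another build than that of the counts), which gave a window for 7 of the 9 genes. Each was searched on both strands for the core of the interferon-stimulated response element (ISRE), read as GAAA, any 2 bases and GAAA again, and for the gamma-activated site (GAS), TTCNNNGAA. The windows of *B2m*, the most abundant member, of *Tap1* and *Psmb9*, whose starts lie 456 bases apart and whose windows share 44 bases, and of *Psmb10* are printed 5′ to 3′ with ISRE matches in capitals.
*B2m* chr3:129549080-129549329 (+ strand): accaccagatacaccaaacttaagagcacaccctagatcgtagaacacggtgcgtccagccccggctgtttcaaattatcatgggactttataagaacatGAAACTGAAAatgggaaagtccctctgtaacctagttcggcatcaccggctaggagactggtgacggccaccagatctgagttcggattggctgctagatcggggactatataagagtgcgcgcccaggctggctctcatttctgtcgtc
*Tap1* chr20:4668544-4668793 (- strand): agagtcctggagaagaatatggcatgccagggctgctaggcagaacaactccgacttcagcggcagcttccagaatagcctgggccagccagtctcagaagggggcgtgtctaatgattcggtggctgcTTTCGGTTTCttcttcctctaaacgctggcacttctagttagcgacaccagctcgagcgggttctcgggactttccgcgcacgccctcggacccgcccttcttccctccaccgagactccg
*Psmb9* chr20:4668750-4668999 (+ strand): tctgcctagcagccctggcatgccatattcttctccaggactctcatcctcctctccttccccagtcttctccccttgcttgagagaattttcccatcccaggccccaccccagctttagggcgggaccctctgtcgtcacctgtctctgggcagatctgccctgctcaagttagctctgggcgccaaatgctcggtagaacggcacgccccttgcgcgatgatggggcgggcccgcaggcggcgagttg
*Psmb10* chr19:50743293-50743542 (- strand): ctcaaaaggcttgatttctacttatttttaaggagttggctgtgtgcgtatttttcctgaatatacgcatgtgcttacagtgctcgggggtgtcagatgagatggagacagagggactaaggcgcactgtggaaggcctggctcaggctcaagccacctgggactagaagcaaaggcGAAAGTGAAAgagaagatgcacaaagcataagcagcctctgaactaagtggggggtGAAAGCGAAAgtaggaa
The ISRE core was in the windows of 5 genes (*B2m*, *Tap1*, *Tap2*, *Tapbp* and *Psmb10*) and in 3.41% of the 33469 windows of this length. *Tapbp* and *Psmb10* had 2 matches each, which overlap in *Tapbp*, and the match of *Tap1* is on the other strand. The GAS letters were in *Psmb8* alone among the 7, and in 7.67% of all windows. No match was found in the window of *Psmb9*, nor in those of *Psmb5*, *Psmb6* or *Psmb7*. The *Tap1* match, 121 to 112 bases upstream of *Tap1*, lies in the 456 bases between the RefSeq starts of *Tap1* and *Psmb9*, outside the *Psmb9* window. In the models used for the counts these genes overlap by 856 bases instead. Their RefSeq windows thus need not stand before the counted starts.

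The partners of these genes in the pathway are read here against the 20.9% of all genes that were lower and the 12.9% that were higher in 20 d against Cont with TMM scaling. Of 20 class I heavy chain genes, which encode the chain that binds the peptide, 11 were tested, and in 20 d against Cont 4 were higher and 1 (*RT1-N3*, -2.58) was lower. *RT1-T24-4* averaged 144 CPM in 20 d and 86.3 CPM in Cont (0.74, adjusted *p* = 0.00019), *RT1-S3* 39.5 and 24.96 CPM (0.66, 1.66e-05) and *RT1-CE14* 2.001 and 1.23 CPM (0.71, 0.00276). With library size alone 2 were higher and 2 were lower, and the reads of these near-identical genes may have been divided among copies. Of 10 endoplasmic reticulum partners, 3 were higher in 20 d against Cont, including the chaperone *Calr* (0.52, 6.2e-05) and the translocon subunit *Sec61g* (0.48, 0.000515), and 3 were lower, including the chaperone *Hspa5* (-0.72, 0.0307), but with library size alone 0 were higher and 6 were lower. Of 10 other subunits of the proteasome core, 1 was higher (*Psma6*, 0.30) and 2 were lower (*Psma2*, -1.32, and *Psmb3*, -2.21) in 20 d against Cont, with a median of -0.05, but with library size alone 0 were higher and 3 were lower. Of these tested core subunits 2, *Psmb3* among them, had no 20 d library over the filter. The same held for 2 tested heavy chain genes and 1 endoplasmic reticulum partner. Of 6 tested activators and assembly factors 1 was higher (*Psme4*, 0.26) and 0 were lower, but with library size alone 0 were higher and 3 were lower. The interferon-inducible activator genes *Psme1* (-0.01, 0.976) and *Psme2* (-0.52, 0.153) did not pass. Of 7 tested peptidases of the pathway, 1 was higher (*Dpp8*, 0.25) and 1 was lower (*Lnpep*, -0.59), and with library size alone 0 were higher and 1 was lower.

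Several genes upstream of the pathway fell. Of 6 tested genes of interferon gamma signalling, 4 were lower and 0 were higher in 20 d against Cont, with a median of -1.79. The 4 include the receptor chain *Ifngr2* (-2.67, adjusted *p* = 8.49e-06), the kinase *Jak1* (-1.26, 6.69e-07) and the feedback inhibitor *Socs3* (-4.66, 2.65e-07). With library size alone 6 were lower and 0 were higher. *Ifng* itself had 0 counts in Cont and 10 d and 1 in 20 d. Of 11 tested transcription factors of MHC genes, 4 were lower, including *Irf1* (-2.61, 3.36e-06) and *Nfkb1* (-3.58, 8.43e-07), and 1 was higher (*Nfyc*, 0.60, 0.000126). With library size alone 7 of these factors were lower and 0 were higher. Of 21 tested interferon response genes, 10 were lower and 2 were higher, and with library size alone 14 were lower and 1 was higher. The antiviral gene *Mx1*, with 3 counts over the 20 d libraries and 200 over those of Cont, fell by 5.42 (1.53e-06), while *Rsad2*, another antiviral gene, averaged 595 CPM in 20 d and 291 CPM in Cont (1.03, 3.5e-09). *Socs3*, *Nfkb1* and *Mx1* had no 20 d library over the filter, so they could be tested through the other conditions alone. This held for 1 tested gene of interferon gamma signalling, 2 transcription factors and 2 interferon response genes.

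The fall of the 6 genes in 20 d against Cont went with that of leukocyte markers. Of 10 pan-leukocyte markers 9 were lower in 20 d against Cont (median -3.07), and their summed level was 28.4 to 32.1 CPM in 20 d, against 57.2 to 83.3 CPM in Cont, most of the 20 d sum coming from *Cd52* (26.2 CPM), the 1 marker that did not pass. Of 13 T cell markers 9 were tested, each of which passed the filter through the other conditions since none had a 20 d library over it, and 9 were lower, with sums over the 13 of 0.124 to 0.298 CPM in 20 d and 5.78 to 6.86 CPM in Cont and *Cd3d* at 0 in 20 d. Of 12 B cell markers 10 were tested, 9 of them with no 20 d library over the filter, and 10 were lower (sums of 0.211 to 0.570 CPM in 20 d and 5.72 to 7.53 CPM in Cont, *Pou2af1* at 0 in 20 d). Of 12 neutrophil markers 9 were tested and 9 were lower (sums of 2.38 to 4.93 CPM in 20 d and 42.5 to 67.3 CPM in Cont), of 9 monocyte markers 3 and 3 (1.34 to 2.84 CPM in 20 d and 38.7 to 69.5 CPM in Cont), and of 5 natural killer cell markers 1 and 1. Of these tested genes, 4 neutrophil, 2 monocyte and 1 natural killer cell markers had no 20 d library over the filter, so they could be tested through the other conditions alone. Of 9 platelet markers 1 was lower in 20 d against Cont, and 7 were higher in 10 d against Cont. Of these 9, 4 had no 20 d library over the filter. *F13a1* had 0 Cont libraries over it, and *Itga2b* and *Pf4* had 2 each, while all 4 of their 10 d libraries were over it. These 3 could thus be tested through 10 d, where they were high. In 10 d against Cont, where 5.69% of all genes were lower and 8.02% were higher, the lists parted. The lower ones were 9 of the 9 tested T cell, 7 of 10 pan-leukocyte (median -1.15), 6 of 9 neutrophil and 2 of 3 monocyte markers. The higher ones were 3 of 10 B cell markers and 6 of 9 MHC class II genes. With single libraries left out, 3 to 6 class II genes and 3 to 4 B cell markers were higher. The lower ones then numbered 8 to 11 T cell, 6 to 8 pan-leukocyte and 4 to 7 neutrophil markers. Scaling by library size alone shifted the median log2 fold change of all genes by -0.36 in 10 d against Cont. Of the 9 class I processing genes 1 was lower and 1 was higher there, with a median of -0.50. MHC class II, which presents peptides from outside the cell, had summed levels of 6.85 to 8.15 CPM in Cont, rather more in 10 d (12.5 to 14.96 CPM) and 0.406 to 0.720 CPM in 20 d. Of the 9 tested class II genes, 5 had no 20 d library over the filter. *Cd74*, the class II invariant chain, was higher in 10 d against Cont (0.43, adjusted *p* = 0.0217) and fell by 4.51 in 20 d against Cont (4.44e-13). Its raw counts overlapped between Cont (271 to 326 per library) and 10 d (287 to 365). Its TPM averaged 3.64 ± 0.54 in Cont and 3.74 ± 0.37 in 10 d (SD). Of 14 RBC markers 11 were higher in 20 d against Cont, as *B2m* was, but 2 were with library size alone. The part of these cells in the results on the 9 genes was not tested.

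**Figure D5:**
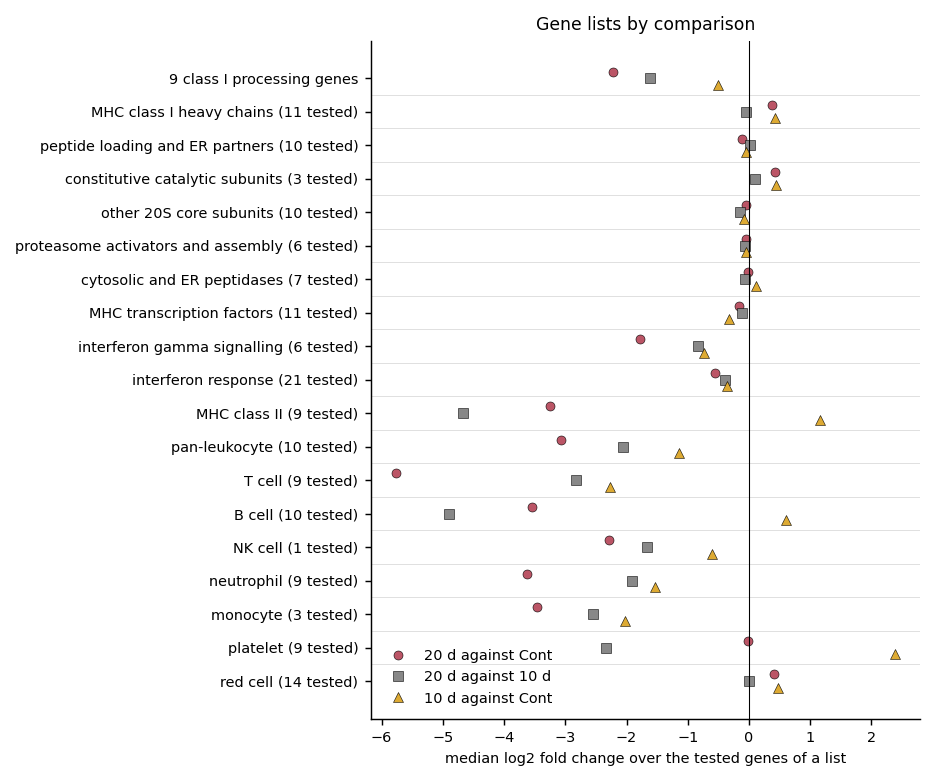
Median log2 fold change over the tested genes of each list in 20 d against Cont (circles), 20 d against 10 d (squares) and 10 d against Cont (triangles), with the number tested. The 9 class I processing genes (-2.22 in 20 d against Cont) lie between the leukocyte lists (pan-leukocyte -3.07) and the other proteasome lists (-0.05). The RBC list lies at 0.41, and its higher genes number 11 of 14, against 2 with library size alone.

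As a description, the genes most like each member over the 12 libraries were sought among 3340 genes by Pearson correlation of log2 CPM, where libraries share a condition and so points are not independent. *B2m* was most like the heavy chain gene *RT1-T24-4* (*r* = 0.949). *Psmb9* was most like *Actg1_1* (0.980) and *Jak1* (0.975), *Tap1* like *Tf* (0.979) and *Tmem71* (0.977), and *Tap2* like *Klf2* (0.965) and *Wipf1* (0.963). *Psmb8* was most like *Crkl* (0.947) and then *Brd2* (0.932), *Psmb10* like *Tkt* (0.949) and *Nlrc5* like *Zfp445* (0.926). The best values of *Tapbp* (*Rnf5*, 0.883) and *Erap1* (*Otud4*, 0.831) were the lowest of the 9. That order includes the differences between conditions. For deviations from the condition means, the same pairs gave 0.891 for *Tapbp* and 0.847 for *Erap1*, which were not the lowest. *Psmb9* gave 0.809 with *Actg1_1* and 0.695 with *Jak1*. The first-named genes gave 0.904 for *B2m*, 0.959 for *Tap1*, 0.791 for *Tap2*, 0.815 for *Psmb8*, 0.802 for *Psmb10* and 0.862 for *Nlrc5*.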

How the data were processed

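RNA of 12 RBC libraries, 4 per condition, was sequenced. The authors used CLC Genomics Workbench 22.0 for mapping to mRatBN7.2 (annotation release 105). The authors deposited 1 table with raw read counts per gene and TPM values. Its 24 RPKM and CPM columns were not used, nor were its columns of the authors' own comparisons (fold changes, p-values, FDR and Bonferroni values, largest group means).

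The deposited counts went into edgeR 4.0.16 under R 4.3.3. Genes were kept by filterByExpr (8382 of 29539), scaled by TMM and tested by the robust quasi-likelihood F-test over all 12 libraries, with Benjamini-Hochberg adjustment over all genes tested. Thresholds were 0.05 for pairs and 0.0001 among the 3 conditions. CPM here is TMM-scaled. Ratios used log2 of counts plus 0.5 and a two-sided exact permutation test. The fits were tested on simulated data. Alternatives were other scalings and filters, DESeq2 1.42.0, edgeR's likelihood ratio test, a replicate block and leaving out each library. Limma 3.58.1 on log2(TPM + 0.1) was added after seeing the data.

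All 9 members, the 3 constitutive subunits and up to 3 genes per other list, by the smallest *p* among conditions, were named. *RT1-N3*, *Psma6*, *Psma2*, *Psmb3*, *Psme4*, *Psme1*, *Psme2*, *Dpp8*, *Lnpep*, *Cd52*, *Brd2*, *Ifng* and *Rgl2* were named after their values were seen. The members and lists were chosen with earlier results of these data known. Whether the counting used strand is not given in the sources used here.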

Additional observations from a re-analysis of the deposited data

Results flagged for a closer look

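In 45 sets of 4 libraries checked, 4 had 1 library far from the other 3, where chance flags about 1 in 20. *B2m* was at 742.5 CPM in 10 d replicate 1, with the others at 553.7 to 574.5 CPM, and at 678.0 CPM in 20 d replicate 1, with the others at 586.1 to 598.6 CPM. *Psmb10* was at 0.237 CPM (17 counts) in 10 d replicate 2, with the others at 0.0552 to 0.0853 CPM (4 to 6 counts). *Nlrc5* was at 0.541 CPM in 20 d replicate 1, with the others at 0.760 to 0.795 CPM.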

How the results depend on the processing

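Of 525 values of the 9 members under an alternative, 465 kept direction and call, 26 lost and 12 gained a call, and 22 changed sign. The 3 constitutive subunits are not in these counts. In 20 d against Cont, call or sign changed in 8 of 19 alternatives for *Psmb5*, 4 of 20 for *Psmb6* and 2 of 20 for *Psmb7*. In 10 d against Cont these were 1 of 19, 10 of 20 and 6 of 20, and in 20 d against 10 d 2 of 19, 11 of 20 and 1 of 20. The falls of *Tap1*, *Tap2*, *Psmb8*, *Psmb9* and *Psmb10* in 20 d against Cont passed in every alternative that tested them (19 or 20 each). With 1 CPM asked in 4 libraries, only 4 members were tested (*B2m*, *Tap2*, *Tapbp* and *Nlrc5*). The cause of the other changes was not tested. Over the 4 libraries of 20 d, *Psmb10* held 8 counts, *Psmb8* 15 and *Psmb9* 17.

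In the order higher and lower for each comparison, the genes called with library size alone were 95 and 1912 (10 d against Cont), 100 and 2905 (20 d against Cont) and 66 higher (20 d against 10 d), and with limma on TPM 89 and 2283, 51 and 3965, and 13 higher, with 375 among the 3 conditions. With 1 CPM in 4 libraries they were 363 higher (10 d against Cont), 377 and 641 (20 d against Cont), 440 lower (20 d against 10 d) and 207 among the 3 conditions. Higher genes in 20 d against 10 d numbered 531 with DESeq2 size factors, 588 without a filter and 565 with DESeq2, and genes among the 3 conditions 1539 without a filter, 1306 with DESeq2 and 1246 with the likelihood ratio test.

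Of the members in 10 d against Cont, 0 were higher with library size alone, 1 CPM, limma or DESeq2 size factors, and the lower ones numbered 2 with library size alone, no filter or DESeq2, 3 with limma and 0 with 1 CPM. In 20 d against Cont 0 were higher with library size alone, 1 CPM or limma, and 2 were lower with 1 CPM. In 20 d against 10 d 2 were lower with library size alone and 1 with 1 CPM. Among the 3 conditions the members called were 1 with library size alone, limma or DESeq2 size factors, 0 with 1 CPM, 5 without a filter, and 4 with DESeq2 or the likelihood ratio test.

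Signs changed with library size alone for *B2m* (-0.0449 in 20 d against Cont, -0.0134 in 20 d against 10 d, -0.0315 in 10 d against Cont), *Tapbp* (-0.31 in 20 d and -0.19 in 10 d against Cont) and *Psmb5* (-0.37 in 20 d against Cont). With limma on TPM they changed for *B2m* (-0.155, -0.0848 and -0.0703 in the same order), *Tapbp* (-0.44 and -0.21), *Psmb5* (-0.49), *Psmb6* (-0.0533 in 20 d against Cont) and *Psmb7* (-0.0113 in 20 d against 10 d). With 1 CPM they changed for *B2m* (-0.0218 in 20 d against 10 d) and *Tapbp* (-0.0903 in 20 d against Cont). *Psmb5* in 20 d against Cont was -0.00239 with DESeq2 size factors and -0.00256 with DESeq2, and *Psmb6* in 20 d against 10 d was 0.0366 with either (0.03655 with DESeq2) and 0.0613 without a filter.

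Leaving out each library gave ranges of 286 to 623 genes lower in 10 d against Cont (477 with all, 286 without Cont replicate 2), 148 (without 10 d replicate 2) to 540 (without Cont replicate 1) higher in 20 d against 10 d, and 333 (without Cont replicate 2) to 722 among the 3 conditions. Members called ranged over 0 to 1 higher and 1 to 2 lower in 10 d against Cont, 2 to 5 lower in 20 d against 10 d, and 1 to 2 among the 3 conditions. Log2 fold changes that changed sign ranged over -0.0330 to 0.128 for *B2m*, -0.228 to 0.0905 for *Tapbp*, -0.366 to 0.0861 for *Erap1*, -0.0913 to 0.531 for *Psmb5* and -0.109 to 0.0498 for *Psmb6* in 20 d against 10 d, -0.0580 to 0.26 for *Tapbp* and -0.31 to 0.31 for *Psmb5* in 20 d against Cont, and -0.32 to 0.13 for *Erap1* and -0.426 to 0.0523 for *Psmb5* in 10 d against Cont. The ratio of *Psmb8* to *Psmb5* ranged over -5.18 to -3.15 in 20 d against Cont, -4.46 to -2.43 in 20 d against 10 d and -1.03 to -0.46 in 10 d against Cont. *Psmb9* to *Psmb6* ranged over -4.325 to -3.765, -2.305 to -1.78 and -2.16 to -1.75 in the same order, and *Psmb10* to *Psmb7* over -3.24 to -2.75 in 20 d against Cont.

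Deviations of same-numbered libraries from their condition means correlated by 0.0167 to 0.2136, over 0.1 in 5 of 12 pairs, and the best match of a library in another condition had its own number in 20 of 24 cases. This is a hint from the data, not from the design, that the numbers pair libraries. Since no label ties a number to a rat and 7 of 12 pairs did not exceed 0.1, tests stayed unpaired. With the replicate number as a block, 2 members were lower in 10 d against Cont and 4 members passed among the 3 conditions, 531 genes were higher in 20 d against 10 d, 1279 genes passed among the 3 conditions, and *Psmb5* in 20 d against Cont was -0.11. With this block *Tap1* passed in 10 d against Cont (-1.23, adjusted *p* = 0.000283 in edgeR's quasi-likelihood test) and *Nlrc5* in 20 d against 10 d (-0.55, 0.0472), while *Psmb8* in 20 d against 10 d did not (-2.29, 0.0588).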
